A study of Sus scrofa with 15 samples.

Results

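PTGDS and PTGS2, enzymes of prostaglandin synthesis, were followed through the backfat of 15 Iberian pigs. They were taken by gene symbol: every probe set of the deposited table whose platform annotation reads PTGDS or PTGS2 and nothing else. This gave 1 probe set for PTGDS (Entrez gene 397456) and 1 for PTGS2 (Entrez gene 397590), so 2 of the 1260 named genes and 2 of the 3255 tested probe sets. The pair was selected on the diet difference of its own log2 signals in these same arrays, so its diet values are given as a description with no test.

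The 8 high-oleic animals received feed enriched in oleic acid, and the 7 control animals a standard feed. All were castrated males of the Iberian breed, and the diets ran from 28 kg live weight to slaughter, planned at 110 kg. The treatment time was given as 24 weeks. The high-oleic feed held 3360 kcal per kg and the control feed 3130, and control animals were given 10% more of it so that both groups received equal energy and protein. The sample is labelled as the inner layer of the backfat and came from the level of the last rib. The labels give no age. Each animal was measured on 1 Affymetrix porcine array, which makes the animal the replicate, and precision is limited by how many arrays there are. Values are log2 signals per probe set, on which a difference of 1 is a doubling. The question put to the diets is how gene expression in fat relates to oleic acid in the feed.

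Cyclooxygenases turn arachidonic acid, released from membrane phospholipids, into prostaglandin H, and terminal synthases turn that into the individual prostaglandins and thromboxane. PTGS1 is the cyclooxygenase that most tissues make steadily, while PTGS2 is induced by cytokines, growth factors and stress. PTGDS, the lipocalin-type synthase, makes prostaglandin D and is also a secreted carrier of small lipophilic molecules such as retinoids. In fat, prostaglandin E restrains lipolysis, and metabolites of prostaglandin D can activate PPARG, the master regulator of adipocyte differentiation.

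PTGDS, which makes prostaglandin D, had the lower signal in the high-oleic group. In high-oleic animals 1 to 8 its log2 signal was 11.06, 10.89, 10.14, 10.41, 11.89, 11.19, 10.35 and 11.65. In control animals 1 to 7 it was 11.03, 13.10, 12.37, 12.07, 12.78, 12.76 and 12.05. Of the 7 control animals, 6 lay above the highest high-oleic animal, and control animal 1 lay among the high-oleic animals, of which 4 were below it. The means were 10.95 ± 0.63 on the high-oleic diet (SD, n = 8) and 12.31 ± 0.68 on the control diet (SD, n = 7). The difference was -1.36 with a standard error of 0.32 (95% interval -2.03 to -0.69), so the mean high-oleic signal was 0.390 of the control signal on the linear scale. In bulk tissue, fewer cells of a type and less RNA per cell cannot be told apart.

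PTGS2, the inducible cyclooxygenase, also had the lower signal in the high-oleic group, where its SD was also the smaller, a difference in spread that was not tested. In high-oleic animals 1 to 8 its log2 signal was 5.85, 5.002, 5.94, 5.64, 5.504, 5.499, 5.69 and 5.70. In control animals 1 to 7 it was 7.17, 6.40, 5.73, 6.27, 5.85, 6.62 and 7.47. The groups overlapped through control animals 3 and 5, which lay among the high-oleic animals, while the 5 other control animals exceeded every high-oleic animal. The means were 5.60 ± 0.29 on the high-oleic diet (SD, n = 8) and 6.50 ± 0.64 on the control diet (SD, n = 7). The difference was -0.90 with a standard error of 0.27 (95% interval -1.46 to -0.34), a linear ratio of 0.536.

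**Figure D1:**
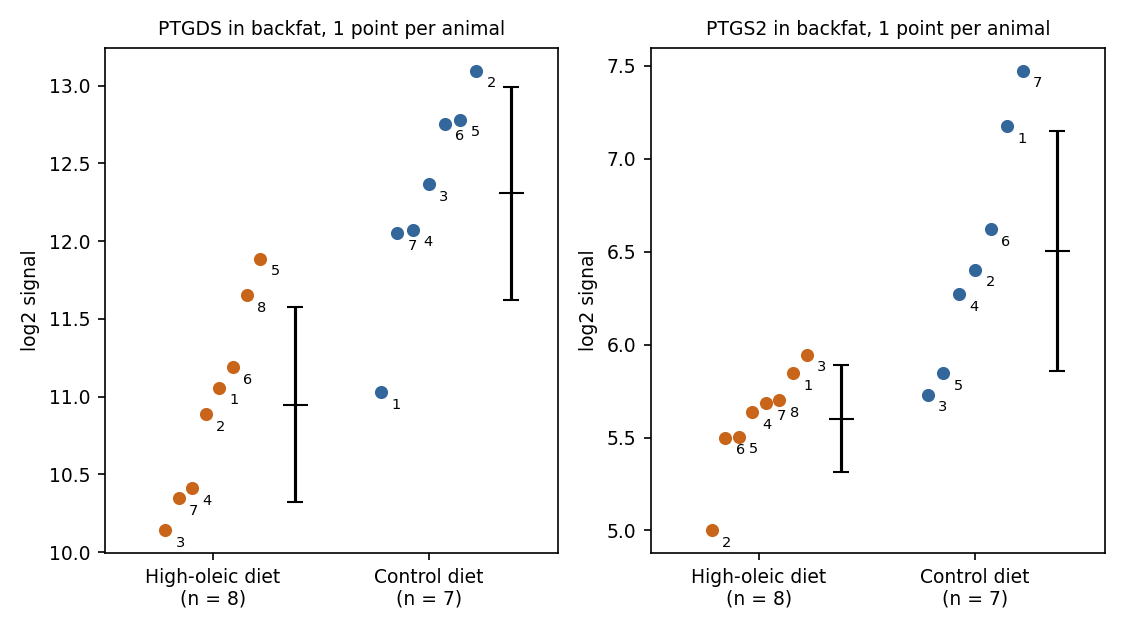
Log2 signal of PTGDS (left) and PTGS2 (right) in each animal, with the high-oleic diet left of the control diet, animal numbers beside the points, points ordered by level within a diet, and the mean with its SD at the right of each group. Means are 10.95 and 12.31 for PTGDS and 5.60 and 6.50 for PTGS2, and in both panels the groups overlap.

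Across the whole table no probe set passed between diets. At a Benjamini-Hochberg adjusted p of 0.05 in limma 0 of 3255 (0%) passed, and before adjustment 128 (3.93%) were under 0.05, with 62 (1.9%) lower and 66 (2.03%) higher in high-oleic animals. An exact permutation test over all 6435 splits gave 0 after adjustment and 136 before it. With so few splits for 3255 probe sets, no single probe set could pass this adjustment on its own, so that 0 adds little. Of the 3255 probe sets, 0 (0%) had all high-oleic animals below all control animals and 1 (0.0307%) had them all above. Mean live weight was 109 ± 3.52 kg in high-oleic animals (SD, n = 8) and 117 ± 7.32 kg in control animals (SD, n = 7). With live weight as a covariate PTGDS differed by -1.31 and PTGS2 by -1.11. Among the 4 high-oleic and 6 control animals of 109.5 to 118 kg, PTGDS differed by -1.53 and PTGS2 by -0.92.

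Some marker scores had different means in the diets, which were not tested. A score is the mean, over the measured markers of a cell type, of each marker's deviation from its own mean (log2). The adipocyte score, of 3 of 18 markers, was 0.40 ± 0.50 in high-oleic animals (SD, n = 8) and -0.46 ± 0.56 in control animals (SD, n = 7), and all 3 markers had the higher mean in high-oleic animals. The smooth muscle and pericyte score, of 10 of 20 markers, was -0.20 ± 0.23 in high-oleic animals and 0.23 ± 0.71 in control animals, with 9 of 10 lower. The skeletal muscle score, of 9 of 20 markers, was -0.20 ± 1.59 in high-oleic animals and 0.23 ± 2.07 in control animals, with 9 of 9 lower. Of all 3255 probe sets 1733 had the lower and 1522 the higher mean in high-oleic animals. The part of cell makeup in the diet difference of either gene was not tested.

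The relation between the genes depended on whether the diet groups were pooled. Over all 15 animals the levels gave r = 0.32 and rho = 0.39, values that contain the diet difference for which the genes were chosen and so carry no test. After the diet means were removed, r was -0.43 over the 15 animals (permutation within diets, two-sided p = 0.141) and rho was -0.40 (permutation p = 0.155). The adjusted p was 0.388 for r and 0.407 for rho over the 21 relations computed in this family, so no relation at fixed diet was established. The sign was negative in both groups, with r = -0.26 and rho = -0.36 among high-oleic animals (p = 0.563 and 0.389 over all orders, an exact permutation test). In control animals r was -0.54 and rho -0.50 (p = 0.207 and 0.267 by the same exact test). In high-oleic animals r was 0.05 without the 2 animals farthest from the median of PTGDS, and in control animals it was -0.44.

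Of the 15 animals, control animal 1 moved this correlation most when left out. It had the lowest PTGDS of its diet, 11.03, and the second-highest PTGS2, 7.17. Without it r at fixed diet was -0.25, and without the 2 animals farthest from the median of PTGDS, control animal 1 and high-oleic animal 5, it was -0.28. The difference between diets in the slope of PTGS2 on PTGDS was 0.39 with a standard error of 0.43 (limma, adjusted p = 0.891), so the groups' relations were not shown to differ. With each array centred on its median r was -0.55 (permutation p = 0.049, not adjusted).

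**Figure D2:**
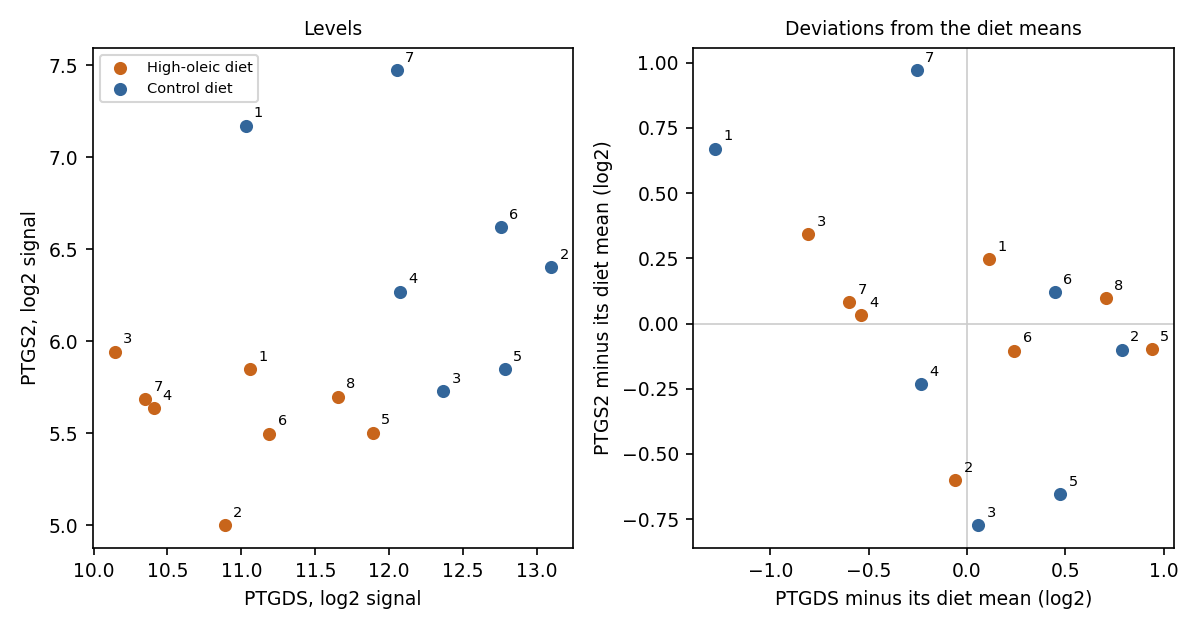
PTGDS against PTGS2, 1 point per animal with its number, as log2 levels (left) and as deviations from the mean of the animal's diet (right). The levels give r = 0.32 over the 15 animals and the deviations r = -0.43, with control animal 1 at the upper left of the deviations.

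Neither gene was shown to follow live weight once diet was in the fit. The slope per 10 kg was 0.06 for PTGDS (SE 0.32, 95% interval -0.60 to 0.72, adjusted p = 0.980) and -0.26 for PTGS2 (SE 0.26, 95% interval -0.79 to 0.28, adjusted p = 0.919) in limma over all 3255 probe sets, of which 0 (0%) passed and 124 (3.81%) were under 0.05 before adjustment, a number that was 251 without high-oleic animal 8. Both slopes changed sign without control animal 5, which weighed 133 kg, to -0.54 for PTGDS and 0.13 for PTGS2. For PTGDS the sign also turned without control animal 1, where the slope was -0.12. Without control animal 2, 5 probe sets passed for live weight, and without high-oleic animal 7, 2 did, and neither PTGDS nor PTGS2 was among them. Within diets the slope of PTGDS was -0.90 among high-oleic animals and 0.31 among control animals, and that of PTGS2 was 0.14 and -0.36. Without control animal 5 the slope among control animals was 0.45 for PTGDS and 0.11 for PTGS2, so the opposite signs of PTGS2 rest on that animal. The difference between the diets in slope was -1.21 for PTGDS (SE 0.74, adjusted p = 0.942) and 0.51 for PTGS2 (SE 0.64, adjusted p = 0.996), in limma.

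Of 42 genes listed for prostaglandin synthesis, breakdown, transport and reception, 8 were measured, PTGDS and PTGS2 among them, and the rest were not analysed here. The 6 others had a median diet difference of -0.19, against -0.03 over all 3255 probe sets. Of these 6, 4 had a lower and 2 a higher mean on the high-oleic diet, against 1733 and 1522 of the 3255 probe sets. In limma 0 of the 6 passed in either direction, with 0 also under 0.05 before adjustment and an adjusted p of 0.999 for each.

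PTGS1, the steadily made cyclooxygenase, had a difference opposite in sign to that of PTGS2. Its lowest, median and highest log2 signals were 5.86, 6.61 and 7.20 in high-oleic animals and 4.90, 6.08 and 6.76 in control animals, so the groups overlapped. The difference was 0.55 (95% interval -0.11 to 1.20), and 0.36 without control animal 7. PTGES, which makes prostaglandin E, had 5.48, 6.69 and 7.68 in high-oleic animals and 6.41, 7.28 and 7.77 in control animals, a difference of -0.38 (95% interval -1.06 to 0.30) that was -0.21 without high-oleic animal 1, -0.22 with live weight as a covariate and -0.58 with the spiked-in signal. TBXAS1, the thromboxane synthase, was dim, with 2.13, 2.68 and 4.26 in high-oleic animals and 2.22, 2.32 and 2.52 in control animals, where the lowest value of the table was 1.49. Its difference was 0.60 (95% interval -0.0011 to 1.21), and 5 of the 8 high-oleic animals exceeded every control animal.

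PTGFR, the receptor of prostaglandin F, differed by -1.003 (95% interval -2.10 to 0.09), with a wide spread on the high-oleic diet. Its lowest, median and highest log2 signals were 3.56, 7.23 and 7.76 in high-oleic animals and 6.25, 7.71 and 8.54 in control animals. With live weight as a covariate it differed by -0.46, and without high-oleic animal 2 by -0.57. PTGFRN, a membrane protein that associates with that receptor, differed by -0.05 (95% interval -0.72 to 0.62), a sign that turned without control animal 5 or 6, without high-oleic animal 1, 2 or 4 and with live weight in the fit. SLCO3A1, an organic anion transporter that carries prostaglandins, differed by -0.34 (95% interval -0.85 to 0.17), and by -0.21 without control animal 3. At fixed diet, PTGFR had r = 0.54 with PTGS2 (limma, adjusted p = 0.930) and r = -0.24 with PTGDS (limma, adjusted p = 0.628) over the 15 animals. PTGS1, PTGES and SLCO3A1 had r = -0.41, -0.36 and -0.45 with PTGS2, which are descriptions, with an adjusted p of 0.998 for each in limma.

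**Figure D3:**
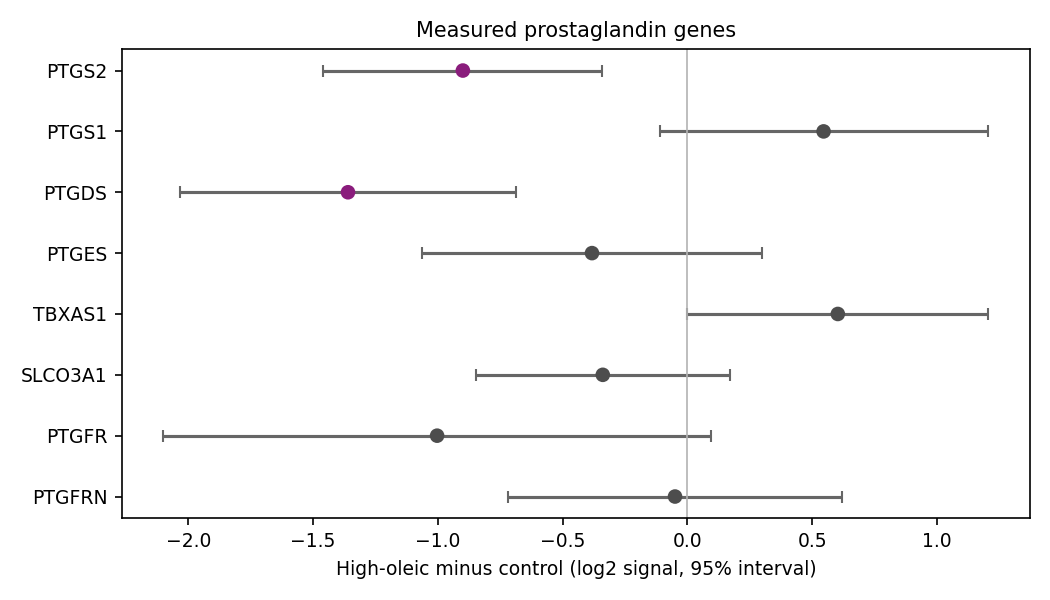
Difference between diets (high-oleic minus control, log2 signal) for the 8 measured prostaglandin genes, with 95% intervals from limma as bars and PTGDS and PTGS2 in purple. PTGS2 at -0.90 and PTGS1 at 0.55 lie on opposite sides of 0. The intervals of the 6 genes in grey include 0. PTGDS and PTGS2 were selected on this difference, so the place of their own intervals is a description and no test.

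Outside the prostaglandin branch, 1 of 19 listed genes of other eicosanoid routes and 0 of 13 genes of polyunsaturated precursor supply were measured. EPHX1, the microsomal epoxide hydrolase, differed by -0.04 (95% interval -0.60 to 0.52). PTGDS belongs to the lipocalins, and 4 of 14 listed carriers of small ligands were measured: the retinol carriers RBP4 and RBP7 differed by 0.35 and 0.10, the lipocalin APOD by -0.35 and the retinoic acid carrier CRABP2 by 0.04. None of these 5 passed in limma, with an adjusted p of 0.999 for each. The signs of EPHX1, RBP7 and CRABP2 turned when single animals were left out. CRABP2 had the highest r with PTGDS among the carriers, 0.63, and high-oleic animal 8 stood apart in it at 8.27.

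Genes that are commonly induced beside PTGS2 were listed as a group, and 12 of the 31 were measured. At fixed diet, 10 of the 12 correlated positively with PTGS2 across the 15 animals, with a median r of 0.28, against 0.05 over all tested probe sets, of which 56.9% were positive. The highest was ATF3, a stress-induced transcription factor, at 0.79, followed by the immediate early gene NR4A3 at 0.55 and the cytokine IL6 at 0.49. EGR1, another immediate early gene, had r = 0.45 on its brighter probe set and 0.60 on its other. ICAM1, a leukocyte adhesion molecule, and IER3, an early response gene, had negative values of -0.18 and -0.17. With PTGDS the median r of the same 12 genes was -0.10, and 6 were positive, IER3 having the highest at 0.66 and NR4A3 the lowest at -0.60.

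Within this group the correlation of ATF3 and of IL6 with PTGS2 lay in the control animals. For ATF3 r was 0.17 among high-oleic animals and 0.95 among control animals, and for IL6 it was -0.34 and 0.83. EGR1 had the other order on its brighter probe set, with 0.86 among high-oleic animals and 0.29 among control animals. Whether these pairs differ between diets was not tested. Between diets 8 of the 12 had the lower mean in high-oleic animals, and the median difference was -0.26. Of all 3255 probe sets 1733 had the lower mean, with a median difference of -0.03. In limma 0 of the 12 passed. On the brightest probe sets 2, IER3 and PDE4B, were under 0.05 before adjustment, where 3.93% of all 3255 probe sets were. The phosphodiesterase PDE4B differed by -0.70, IER3 by -1.003 and CCL2, a monocyte chemokine, by -0.36, with an adjusted p of 0.999 for each. The remaining differences lay between -0.31 for CYR61 and 0.22 for NR4A2 on the brightest probe sets, with IL6 at 0.14, NR4A3 at 0.19, ICAM1 at 0.05, ATF3 at -0.25, EGR1 at -0.17, CXCL8 at -0.26 and PTX3 at -0.27. The dimmer probe set of EGR1 differed by -0.59, and the signs of IL6, NR4A3 and ICAM1 turned when single animals were left out. With 1 animal left out ATF3 ranged from -0.43 (without control animal 3) to -0.048 (without control animal 7), and CXCL8 from -0.46 (without high-oleic animal 1) to -0.11 (without control animal 4). PTX3 ranged from -0.42 (without high-oleic animal 3) to -0.072 (without control animal 4), and EGR1 on its brighter probe set from -0.28 (without high-oleic animal 3) to -0.051 (without high-oleic animal 2).

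Among genes with a symbol, the most like PTGDS across animals was CKB, the brain-type creatine kinase. Likeness was the Pearson r of log2 signals over the 15 animals after the diet means were removed. CKB had r = 0.80, with 0.92 among high-oleic animals and 0.69 among control animals. Its lowest, median and highest log2 signals were 8.87, 10.16 and 11.37 in high-oleic animals and 10.95, 12.07 and 12.43 in control animals, so that, as for PTGDS, 6 of 7 control animals lay above the highest high-oleic animal. CXCL14, a chemokine, had r = 0.80 on both of its probe sets, but its diet means were alike, 7.58 ± 1.36 in high-oleic animals (SD, n = 8) and 7.56 ± 0.90 in control animals (SD, n = 7).

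The next most like PTGDS were the actin-binding DBN1 at 0.78, the stress-response gene GADD45G at 0.78, the kinase NUAK1 at 0.78, the growth factor TGFB1 at 0.77, the Notch-modifying LFNG at 0.76 and the calcium-binding S100A4 at 0.76. Their diet differences ranged from -0.76 for GADD45G to 0.36 for LFNG. Most unlike PTGDS among genes with a symbol were the cell cycle inhibitor CDKN1B at -0.78, the interferon-induced GBP1 at -0.72, LOC100302368 at -0.72 and the aldo-keto reductase AKR1CL1 at -0.72. LOC100302368 was dim, with medians of 2.32 in high-oleic and 2.31 in control animals and a highest signal of 3.86. A second probe set gave 0.48 for DBN1, 0.68 for LFNG and -0.39 for AKR1CL1, and the other probe sets of GBP1 gave -0.72 and -0.61. In limma with diet and PTGDS in the fit, 0 of 3254 probe sets (0%) passed, and 425 (13.1%) were under 0.05 before adjustment. Of the 3254, 43 (1.32%) had an absolute r over 0.7 with PTGDS. The adjusted p was 0.168 for CKB and 0.0839 for each CXCL14 probe set. Over all probe sets r reached further, to 0.83 and -0.86, in probe sets without a symbol. The one at -0.86 had the smallest adjusted p, 0.0835, and passed after quantile normalization and without high-oleic animal 2, 5 or 7.

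The count of probe sets following PTGDS moved with single animals. Without control animal 1 it was 2, both of CXCL14, without control animal 3 it was 1, without high-oleic animal 2 or 5 it was 3 and without high-oleic animal 7 it was 11, while leaving out any of the other 10 animals gave 0. Without high-oleic animal 7, 10 of the 11 had a positive slope on PTGDS, among them the skeletal muscle genes MYL1, MYLPF, TNNC2, CKM, MYH2, SLN and ENO3, named after their values were seen. Before adjustment, 134 probe sets were under 0.05 with the signal of spiked-in transcripts as a covariate and 179 with the skeletal muscle score, against 425 with neither.

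PTGS2 had other companions. The highest r was 0.87 for WDR33, a subunit of the mRNA polyadenylation machinery, 0.86 for MLF1, 0.85 for the transcriptional coregulator IFRD1 and 0.80 for the glucose transporter SLC2A3. ATF3 came next at 0.79, then PTER at 0.78, PLN, the regulator of the sarcoplasmic calcium pump, at 0.75 on one probe set and 0.49 on another, and the Mediator subunit MED4 at 0.74. For WDR33 r was 0.47 among high-oleic animals and 0.96 among control animals, and for PLN 0.25 and 0.88, while MLF1 had 0.79 and 0.91. WDR33 had a higher mean on the high-oleic diet by 0.29, the opposite sign to PTGS2.

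The gene most unlike PTGS2 was LEP, which encodes the adipocyte hormone leptin, at -0.73 on one probe set and -0.67 on the other. It had r = -0.74 among high-oleic animals and -0.74 among control animals. The lowest, median and highest log2 signals of LEP were 9.88, 10.81 and 11.30 in high-oleic animals and 8.61, 10.16 and 10.94 in control animals. With PTGDS the r of LEP was 0.59 on the first of these probe sets and 0.40 on the other. CRYAB, a small heat shock protein, had -0.69 with PTGS2, the complement inhibitor CD59 -0.68 and the heat shock gene HSP70.2 -0.62. Another probe set of HSP70.2 gave -0.54. In limma with diet and PTGS2 in the fit, 0 of 3254 probe sets (0%) passed, 138 (4.24%) were under 0.05 before adjustment, and the smallest adjusted p was 0.843. Of the 3254, 21 (0.645%) had an absolute r over 0.7 with PTGS2.

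**Figure D4:**
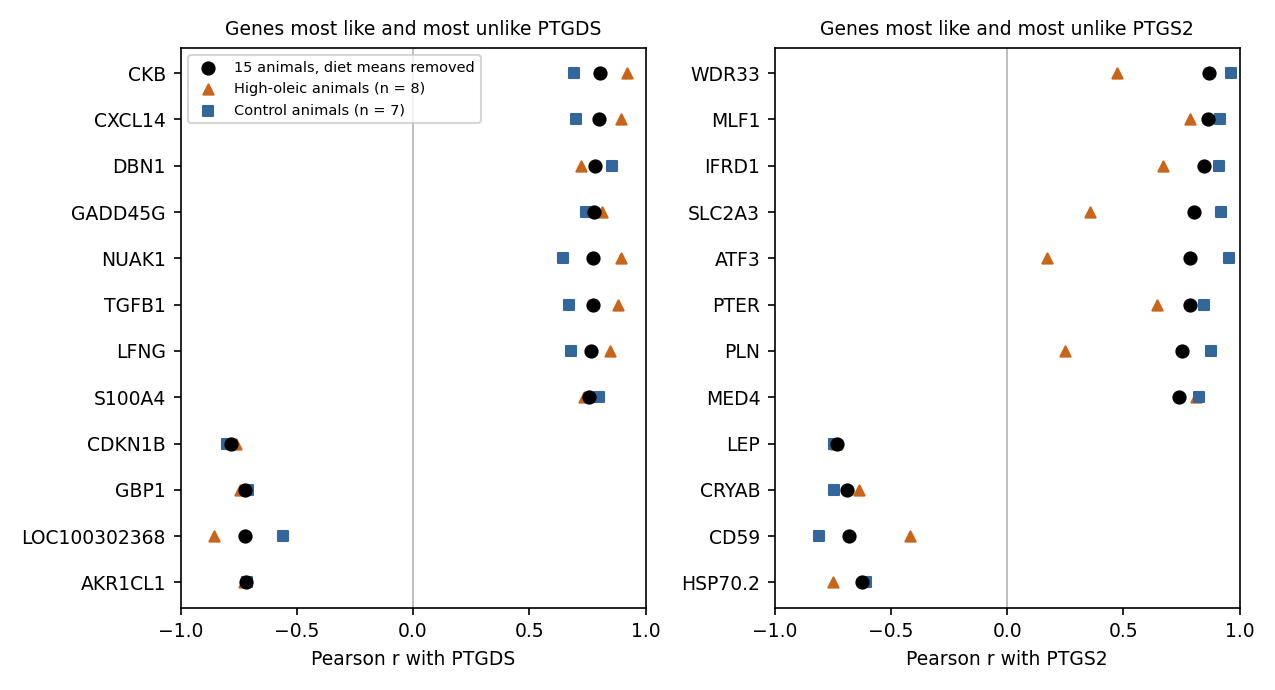
Pearson r of the 8 named genes most like and the 4 most unlike PTGDS (left) and PTGS2 (right), over 15 animals with diet means removed (black circles), among high-oleic animals (orange triangles) and among control animals (blue squares). CKB leads for PTGDS at 0.80 and WDR33 for PTGS2 at 0.87, and ATF3 has 0.17 among high-oleic and 0.95 among control animals.

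The labelled tissue was checked on its markers. The adipocyte markers measured were LEP, the lipase PNPLA2 and PCK1, while the other defining markers were not analysed here. LEP was at least 8.61 in every animal and PNPLA2 ran from 8.11 to 9.37. PCK1 ran from 3.47 to 8.75, so it was dim in some animals. The adipocyte score ran from -0.26 to 1.10 in high-oleic animals and from -0.94 to 0.66 in control animals. Skeletal muscle markers, 9 of 20 measured, varied most, with scores of -1.94 to 2.98 in high-oleic animals and -2.34 to 3.36 in control animals, and MYL1 ranged from 2.27 to 9.88 in high-oleic animals and from 2.21 to 10.49 in control animals. All 9 correlated positively with PTGDS at fixed diet, with a median r of 0.45, and all 9 negatively with PTGS2, with a median of -0.49. Over all tested probe sets these medians were 0.05 and 0.05.

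The skeletal muscle score had r = 0.53 with PTGDS (permutation p = 0.0518, adjusted p = 0.358) and rho = 0.61 (permutation p = 0.0216, adjusted p = 0.333), and r = 0.44 without control animal 1 and high-oleic animal 5. With PTGS2 it had r = -0.52 (permutation p = 0.083, adjusted p = 0.358) and rho = -0.51 (permutation p = 0.0761, adjusted p = 0.333), and r = -0.51 without control animals 3 and 7. In control animals the muscle score had r = 0.87 with PTGDS (p = 0.00714, exact permutation test) and the lymphocyte score, of 3 of 18 markers, r = -0.91 (p = 0.00437, exact permutation test). Both had an adjusted p of 0.150 over the 42 tests within diets. In high-oleic animals the muscle score had r = 0.12 with PTGDS and the lymphocyte score r = -0.03. The lymphocyte markers were dim, where the lowest value of the table was 1.49. CD3E, CD2 and CD8A had medians of 2.61, 3.56 and 4.46 in high-oleic animals and 2.53, 3.41 and 4.43 in control animals. With the muscle score in the fit the correlation of PTGDS with PTGS2 was -0.21, against -0.43 without it, and the diet differences were -1.28 for PTGDS and -0.96 for PTGS2.

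No relation of the array measures with PTGDS or PTGS2 passed after adjustment. The spiked-in transcripts' signal had r = 0.52 with PTGDS (permutation p = 0.0451, adjusted p = 0.358), rho = 0.50 (permutation p = 0.0729) and r = 0.42 without the 2 farthest animals, and with PTGS2 r = -0.04 (permutation p = 0.845). The actin 3′ minus 5′ signal, a sign of RNA integrity, had r = 0.47 with PTGDS (permutation p = 0.0859) and r = -0.49 with PTGS2 (permutation p = 0.0485), with an adjusted p of 0.358 for both. With the spiked signal in the fit the diet difference was -1.56 for PTGDS and -0.89 for PTGS2, and with the actin signal it was -1.36 and -0.90. With the actin signal held fixed the correlation of PTGDS with PTGS2 was -0.25. The part of RNA integrity in that correlation was not tested further.

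Other marker scores gave no relation that passed. With PTGDS r was 0.37 for macrophage markers, 0.33 for fibroblast markers, -0.46 for lymphocyte markers, -0.28 for smooth muscle and pericyte markers, -0.21 for adipocyte markers and -0.02 for endothelial markers. With PTGS2 r was 0.50 for smooth muscle and pericyte markers, -0.18 for macrophage markers, -0.20 for fibroblast markers, 0.27 for lymphocyte markers, -0.28 for adipocyte markers and 0.10 for endothelial markers. The adipocyte markers did not share a sign. With PTGDS r was 0.40 for LEP on its brighter probe set, 0.24 for PNPLA2 and -0.46 for PCK1. With PTGS2 the same markers had -0.67, -0.51 and 0.12. Over the 21 relations the smallest adjusted p was 0.358 for r and 0.333 for rho. Of mast cell, mesothelial and nerve markers 1 of 10, 1 of 11 and 2 of 11 were measured, too few for a score, with the mast cell gene MS4A2 at r = -0.06 with PTGDS and 0.27 with PTGS2.

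**Figure D5:**
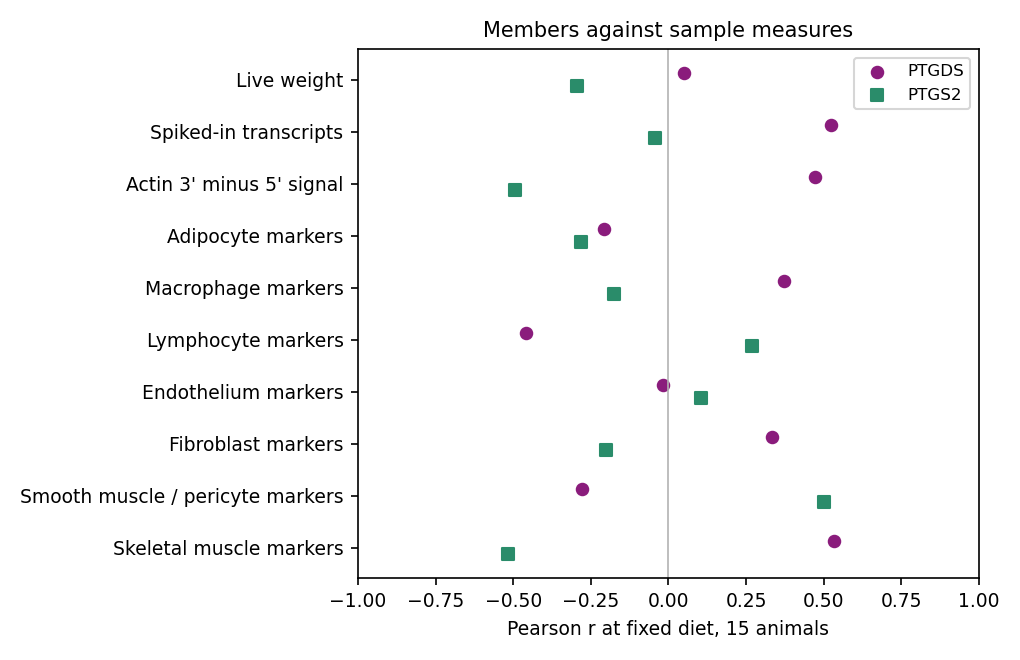
Pearson r at fixed diet over 15 animals of PTGDS (purple circles) and PTGS2 (green squares) with live weight, the spiked-in and actin array measures and the marker scores. Skeletal muscle markers have r = 0.53 with PTGDS and -0.52 with PTGS2, and no relation passed after adjustment.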

How the data were processed

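The authors deposited log2 signals of 3272 probe sets on 15 arrays. The submitters' processing notes name GCOS and GCRMA, with neither versions nor roles. Every probe set deviated from its median by at least 0.585 (log2) on 3 arrays or more, so adjusted p-values refer to variable genes. Array medians lay between 6.39 and 6.67. Of 3255 tested probe sets, the platform annotation gave 1455 a single symbol, 27 several and 1773 none. Tests omitted the manufacturer's 17 controls, of which 7 supplied the spiked-in signal.

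Diet, live weight at fixed diet and likeness to each gene at fixed diet were fitted with limma 3.58.1 in R 4.3.3, two-sided, with Benjamini-Hochberg adjustment over all probe sets and a threshold of 0.05. Correlations at fixed diet used 100000 permutations within diets, and those within a diet every order. Scores used the brightest probe set of each marker. The fits were tested on simulated data with noise drawn independently for each probe set. The diet fit recovered 44 of 100 differences of 1 and 95 of 100 differences of 2 (log2), with 6 false among 3255 probe sets. For changes of 1 (log2) per SD of the gene, the likeness fits recovered 98 of 100 for PTGDS and 100 of 100 for PTGS2. False calls were 4 and 10 among 3254 probe sets. Changes smaller than 1 per SD were not simulated, so these counts do not show how many weaker relations the fits would miss. Figures were drawn with matplotlib 3.10.9.

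The genes and lists were chosen with earlier results of these data known. Named are both genes, every measured gene of the prostaglandin, eicosanoid, co-induced and carrier lists and, for each of the pair, among probe sets with 1 symbol, the 8 genes with the highest and the 4 with the lowest r. In that ranking by r, each gene stood with its probe set of largest absolute r. Marker genes are given mainly by scores. The actin and skeletal muscle covariates were chosen after seeing the data. Promoter motifs were not analysed here. Other alternatives were quantile normalization, median centring, a filter on dim probe sets, each animal left out, the animal number as a block, live weight, a weight window, the spiked-in signal, other variance models and array weights.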

Additional observations from a re-analysis of the deposited data

Results flagged for a closer look

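Values were checked for an animal far from the others of its diet in 118 combinations of measure and diet, and 9 were found, where chance gives about 1 in 20, or 5.90 if the checks were independent.

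High-oleic animal 2 had a PTGS2 signal of 5.002, below the median of 5.69 of the other animals on that diet, and without it PTGS2 differed by -0.81 between diets. MLF1, one of the genes most like PTGS2, was 4.95 in the same animal and had a median of 5.85 in the others. Control animal 5 weighed 133 kg, where the other control animals had a median of 114. Control animal 1, with the lowest PTGDS of its diet, had an LFNG signal of 4.09 and an AKR1CL1 signal of 8.71, where the medians of the others were 5.02 and 5.76.

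High-oleic animal 8 had a fibroblast score of 0.96 and a CRABP2 signal of 8.27, where the medians of the others were -0.19 and 4.68. High-oleic animal 7 had a skeletal muscle score of 2.98, with a median of -0.39 in the others. High-oleic animal 1 had a CXCL8 signal of 5.78, with a median of 4.14 in the others.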

How the results depend on the processing

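The diet differences kept their sign in every alternative run, at -1.57 to -1.23 for PTGDS and -1.03 to -0.74 for PTGS2 when single animals were left out. The correlation of PTGDS with PTGS2 at fixed diet stayed negative, at -0.47 to -0.25 with 1 animal left out, and only with arrays centred on their medians did it pass before adjustment (r = -0.55). Whether animal numbers mark pairs was not settled. Deviations of same-numbered animals correlated at -0.16 to 0.30 over 7 pairs, 4 of them above 0.1, and 2 matched their own number best. In both diets, array medians were 6.39 to 6.55 in animals 1 to 4 and 6.59 to 6.67 in the later numbers. The spiked-in signal was -0.72 to -0.0073 in animals 1 to 4 and 0.0015 to 1.38 in the later numbers. With the animal number as a replicate block, which drops high-oleic animal 8, the correlation of PTGDS with PTGS2 was -0.18. In the same setting PTGDS differed by -1.46 and PTGS2 by -0.91, and 1 probe set followed PTGS2. Probe sets following PTGDS numbered 2 after quantile normalization and 0 to 11 with 1 animal left out, and those following live weight 0 to 5. With the spiked-in signal as a covariate 1 probe set, CKB, passed between diets. The slope of PTGDS on live weight per 10 kg was -0.000498 after centring, -0.50 with the block and -0.10 with the spiked-in signal, and -0.54 to 0.20 with 1 animal left out, and that of PTGS2 was -0.37 to 0.13. Among genes that did not pass, signs turned with the block for ICAM1 (-0.067), RBP7 (-0.056) and CRABP2 (-0.44), with live weight for PTGFRN (0.31), EPHX1 (0.18), IL6 (-0.11) and NR4A2 (-0.21), and with the spiked-in signal for ICAM1 (-0.092), RBP7 (-0.00309) and CRABP2 (-0.48). With 1 animal left out the ranges were -0.25 to 0.090 for PTGFRN, -0.19 to 0.10 for EPHX1, -0.12 to 0.28 for IL6, -0.067 to 0.16 for ICAM1, -0.20 to 0.58 for NR4A3, -0.056 to 0.47 for RBP7 and -0.44 to 0.33 for CRABP2. The causes were not tested. Means over probe sets were not run, as each gene had 1.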
